A study of Homo sapiens with 8 samples.

Results

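Protocadherins, adhesion proteins of the cadherin superfamily, were compared between small and large cells of H1, a human embryonic stem cell line kept on irradiated mouse embryonic fibroblast feeders. Light scatter on a cell sorter defined both fractions, and RNA of 4 small and 4 large sorts, given as separate biological repeats, went onto Affymetrix U133 Plus 2.0 arrays, 1 for each sort. Both fractions share 1 untreated line, so p-values measure the spread between these sorts. The members were all probe sets that the platform annotation assigns to at least 1 gene symbol starting with PCDH, which gave 91 of 54675 probe sets and 64 of 21357 symbols. Of these probe sets, 58 belong to the clustered families and 33 to genes outside the clusters, and 16 of the 91 carry several symbols. Because the genes of a cluster share exons and resemble each other, every clustered probe set was counted once, whatever its number of symbols.

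Protocadherins cross the membrane once, and their extracellular cadherin repeats bind calcium and join like molecules on neighbouring cells. The alpha, beta and gamma families (PCDHA, PCDHB, PCDHG) lie in tandem on chromosome 5. Each variable exon there has a promoter of its own. In the alpha and gamma clusters a variable exon is spliced to constant exons that all genes of that cluster share, whereas each beta gene stands alone. Neurons each express a small choice of these isoforms, which is known for marking single cells during self-avoidance of their branches, and the choice depends on the insulator protein CTCF, cohesin and DNA methylation. The genes outside the clusters, named PCDH and a number, act in tissue separation in the embryo, in epithelia and in neuronal circuits.

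Most clustered promoters carry a conserved element with the core CGCT, so the letters upstream of the gene starts are shown first. RefSeq promoters (GRCh38.p14) were matched by symbol for 53 of the 64 symbols, 41 of them clustered, and the 250 bases before each start were searched on both strands. CGCT, or its reverse AGCG, occurred in 39 of 41 clustered promoters (95.1%), in 11 of 12 promoters of the other protocadherins (91.7%) and in 64.3% of 27305 RefSeq promoters of this length, 1 per symbol. On the gene strand alone, CGCT was in 39 of 41 clustered promoters, in 7 of 12 of the others (58.3%) and in 47.9% of all. The longer string CGCTGT (reverse ACAGCG), which contains the core and was picked after reading these promoters, occurred in 20 of 41 clustered promoters (48.8%), against 8.9% of all. By family it was in 7 of 13 alpha, 1 of 14 beta and 12 of 14 gamma promoters, and in 0 of 12 promoters of the other protocadherins. Where it lay on the gene strand, in 19 clustered promoters, it began between 38 and 95 bases before the start. The gene-strand windows of genes named by tested probe sets, alone or with others, show the surroundings of CGCTGT, in capitals (GRCh38.p14).
PCDHA1 (chr5:140786082-140786121, plus strand): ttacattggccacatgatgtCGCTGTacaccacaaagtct
PCDHA2 (chr5:140794777-140794816, plus strand): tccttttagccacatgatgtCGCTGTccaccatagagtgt
PCDHA6 (chr5:140827893-140827932, plus strand): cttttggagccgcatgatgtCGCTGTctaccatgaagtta
PCDHA8 (chr5:140841126-140841165, plus strand): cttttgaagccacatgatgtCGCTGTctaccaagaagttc
PCDHA10 (chr5:140855837-140855876, plus strand): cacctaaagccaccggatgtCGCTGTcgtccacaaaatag
PCDHAC2 (chr5:140966361-140966400, plus strand): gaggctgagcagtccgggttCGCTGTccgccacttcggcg
PCDHB3 (chr5:141100389-141100428, plus strand): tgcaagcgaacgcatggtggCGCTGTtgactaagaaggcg
PCDHGA1 (chr5:141330399-141330438, plus strand): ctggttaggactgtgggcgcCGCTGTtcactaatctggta
PCDHGA3 (chr5:141343763-141343802, plus strand): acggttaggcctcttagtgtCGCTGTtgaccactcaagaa
PCDHGA4 (chr5:141354956-141354995, plus strand): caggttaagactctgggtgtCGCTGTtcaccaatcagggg
PCDHGA8 (chr5:141392564-141392603, plus strand): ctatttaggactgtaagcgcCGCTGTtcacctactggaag
PCDHGB5 (chr5:141397859-141397898, plus strand): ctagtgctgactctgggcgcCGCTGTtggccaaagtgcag
PCDHGC3 (chr5:141475876-141475915, plus strand): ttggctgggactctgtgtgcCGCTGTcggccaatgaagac
All the alpha windows shown except that of PCDHAC2 hold GTCGCTGT (reverse ACAGCGAC), which was in 5 of 13 alpha and 4 of 14 gamma promoters, PCDHGA3 and PCDHGA4 among them, and in 0.505% of all promoters. GCCGCTGT (reverse ACAGCGGC) was in 8 of 14 gamma promoters, PCDHGA1 and PCDHGA8 among them, in 0 of 13 alpha promoters and in 1.19% of all. These strings overlap, since both contain CGCTGT, which was picked after reading these promoters. Their shares set beside all promoters are therefore no test, and a match describes letters only.

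The 250 bases before the start are given for PCDHGA4 and PCDH18, the genes with a probe set of their own that passed the test below, with CGCT on the gene strand in capitals.
PCDHGA4 (chr5:141354771-141355020, plus strand): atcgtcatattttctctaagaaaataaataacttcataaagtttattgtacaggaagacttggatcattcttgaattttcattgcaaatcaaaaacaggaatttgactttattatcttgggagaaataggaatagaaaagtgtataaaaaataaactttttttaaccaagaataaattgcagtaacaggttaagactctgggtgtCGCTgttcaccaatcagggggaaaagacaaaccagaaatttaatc
PCDH18 (chr4:137532495-137532744, minus strand): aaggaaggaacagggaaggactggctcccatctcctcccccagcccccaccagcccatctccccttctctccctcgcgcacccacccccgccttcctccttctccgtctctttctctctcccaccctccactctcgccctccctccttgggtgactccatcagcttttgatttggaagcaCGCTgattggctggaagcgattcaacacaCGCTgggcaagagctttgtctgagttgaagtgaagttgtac
PCDHGA4 holds the core inside CGCTGT, and both places in PCDH18 lack only the last letter of that string.

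Arrays differed in brightness, with 75th percentiles of the deposited intensities from 42.0 to 106 units, and were quantile normalized on the log2 scale before any comparison. A sign of RNA quality, the log2 excess of the 3′ over the 5′ control probe sets averaged over GAPDH and ACTB, was 2.44, 1.95, 2.66 and 2.42 on small arrays 1 to 4, against 2.92, 1.85, 1.83 and 1.89 on large arrays 1 to 4, so large array 1 was the highest of all. Of 11 embryonic stem cell markers, 9 had a probe set of their own and all 9 passed the filter on low values, NANOG and SOX2 included. Their summed normalized intensity was 15869 to 16834 on small arrays and 17850 to 20175 on large arrays, without overlap. Of their 18 tested probe sets 14 had a difference below 0, and 3 were lower and 1 higher at an unadjusted p under 0.05. After adjustment 1 passed, for the surface glycoprotein PODXL, lower in small cells (-0.98 ± 0.15 SE, adjusted p = 0.0118, limma). PODXL was at 10.71 in small and 11.70 in large cells and made up much of the gap in the sums. On the brightest probe set of each other marker, which entered the sum, differences ran from -0.19 to 0.08. Of 16 neural markers 13 passed the filter (GFAP and NEUROG2 did not), with sums of 1935 to 3602 on small arrays and 1973 to 3419 on large arrays. Of their 20 tested probe sets 18 had a difference above 0, 4 were higher at an unadjusted p under 0.05 and 0 passed after adjustment (limma). Of all tested probe sets, 47.7% had a difference below 0, and 8.58% were lower and 6.65% higher at that unadjusted threshold. PAX6, a transcription factor of neural progenitors, was at 5.47 ± 0.30 in small and 3.71 ± 1.30 in large cells (SD, n = 4 each) and did not pass the test (adjusted p = 0.117, limma). All 10 fibroblast markers passed the filter, with sums of 4766 to 6338 on small arrays and 3404 to 6879 on large arrays. No marker was listed at 0. The part of RNA quality or of these markers in the results below was not tested. All values are levels relative to the RNA hybridised, and fewer expressing cells cannot be told apart from less RNA per cell.

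A filter on low values kept 44 of the 91 protocadherin probe sets, 27 clustered and 17 others, out of 32768 kept in all. Of the 44, 3 were lower and 0 higher in small cells at an adjusted p under 0.05 (limma, Benjamini-Hochberg over all 32768 probe sets), where 1.31% of all tested probe sets were lower and 0.192% higher. The 3 were PCDH18, a probe set shared by 15 alpha genes, and PCDHGA4, each about 2-fold lower. At an unadjusted p under 0.05, 13 of 44 were lower and 0 higher, where 8.58% of all tested probe sets were lower and 6.65% higher. All 4 small values lay below all 4 large values for 8 of 44 (18.2%, against 5.48% of all tested) and above them for 0 (against 3.87%). These counts hold members that passed the filter only through their large mean, 7 of the 44, while 0 passed only through their small mean. Among the 37 with both means above the filter, 10 were lower at an unadjusted p under 0.05 (27.0%, against 8.48% of all such probe sets) and 6 had all small values below all large values (16.2%, against 5.52%). With each array left out in turn, the 3 differences stayed below 0, but all 3 calls were lost without small array 1 or 2 or large array 2, 3 or 4, and PCDHGA4 also without small array 3. The adjusted p then ran up to 0.0908 for PCDH18, 0.0987 for the shared alpha probe set and 0.113 for PCDHGA4. All 3 calls were also lost without the variance trend, with median centring and on the deposited scaling.

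PCDH18, a protocadherin of the non-clustered kind that in mouse binds the adaptor protein DAB1, lies on chromosome 4. Its probe set 225975_at read 7.22, 7.65, 7.31 and 7.93 on small arrays 1 to 4, against 8.29, 8.50, 8.54 and 8.76 on large arrays 1 to 4 (normalized log2 intensity). All small values were below all large values. The log2 difference, small minus large, was -0.99 ± 0.19 (SE, n = 4 per group, limma adjusted p = 0.0238), or 1.99-fold lower in small cells. Its deposited intensities, before normalization, were 139, 139, 273 and 182 units on small arrays and 187, 318, 625 and 529 units on large arrays, and these overlapped. The other PCDH18 probe set, 225977_at, read 4.77, 2.79, 4.78 and 5.24 on small arrays, against 4.66, 5.88, 5.67 and 5.64 on large arrays. There the difference was -1.07 ± 0.47 SE, and the probe set did not pass (adjusted p = 0.298). Small array 2 and large array 1 were lowest in their groups. The groups overlapped through large array 1 alone, which lay below every small array but small array 2.

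For the alpha cluster, 3 probe sets each carry 15 alpha symbols, so they report the cluster and no single isoform. On 223435_s_at the small arrays read 5.87, 5.72, 5.69 and 6.16, against 6.78, 6.88, 6.73 and 7.01 on the large arrays. The groups were apart, with a difference of -0.99 ± 0.19 SE (adjusted p = 0.0256, limma), or 1.98-fold lower in small cells. On 210674_s_at the small arrays read 5.72, 5.35, 5.81 and 6.88, against 6.44, 6.72, 6.95 and 7.03 on the large arrays. Small array 4 lay among the large values here, and the difference of -0.85 ± 0.29 SE did not pass (adjusted p = 0.18). Without small array 4 this probe set was at -1.18 and passed (adjusted p = 0.0322). The third, 224212_s_at, differed by -0.98 ± 0.62 SE (adjusted p = 0.488), with small array 2 at 1.55 and the other small arrays between 4.48 and 4.55.

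A probe set for PCDHA2 and PCDHA3 (210572_at) read 2.44, 2.35, 4.85 and 4.78 on small arrays, against 4.46, 4.15, 5.38 and 5.55 on large arrays, so small arrays 1 and 2 were low and the groups overlapped. It differed by -1.28 ± 0.60 SE and did not pass (adjusted p = 0.334). Its small mean, 3.60, was below the filter at 3.62, so it was tested only through its large mean. The other tested alpha probe sets, for PCDHA5 with PCDHA6, PCDHA9, PCDHAC1 and PCDHA5, had differences from -0.77 to -0.21, all with 95% intervals that included 0. The small mean of the probe set for PCDHA5 with PCDHA6, 3.41, was also below the filter. PCDHAC1 belongs to the C-type isoforms, which neurons express together rather than by choice. Of 13 alpha probe sets, 5 stayed below the filter.

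In the beta family, 0 of 13 tested probe sets passed after adjustment over all probe sets (limma). At an unadjusted p under 0.05, 6 were lower (46.2%, against 8.58% of all tested), some of them tested only through their large mean, as given below. PCDHB5 was the beta probe set with the smallest p. It read 8.10, 8.03, 8.49 and 8.36 on small arrays, against 8.98, 9.09, 8.62 and 8.76 on large arrays. The groups did not overlap, with small array 3 and large array 3 nearest to each other, and the difference was -0.62 ± 0.16 SE (adjusted p = 0.0843). PCDHB3 (221410_x_at) read 4.75, 3.69, 5.14 and 3.80 on small arrays, against 6.13, 5.06, 5.73 and 5.55 on large arrays, and differed by -1.28 ± 0.36 SE (adjusted p = 0.105). Small array 3 was just above large array 2. A second tested PCDHB3 probe set (244183_x_at) had small arrays between 4.72 and 4.82 and large arrays between 5.02 and 5.77, apart from each other, and differed by -0.75 ± 0.25 SE (adjusted p = 0.156). Another PCDHB3 probe set, below the filter (231394_at), was not lower, at 0.06 with no filter (adjusted p = 0.980, limma).

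PCDHB12 read 3.05, 2.75, 4.54 and 3.12 on small arrays, against 4.41, 5.15, 4.86 and 4.69 on large arrays. Small array 3 was the only small value above a large one, and the difference of -1.41 ± 0.44 SE was the most negative of the 44 (adjusted p = 0.136). PCDHB4 and the transcribed pseudogene PCDHB18P also had groups that did not overlap, with differences of -1.31 ± 0.45 and -1.22 ± 0.39 SE, and did not pass. The small means of PCDHB12, PCDHB4 and PCDHB18P, at 3.37, 3.41 and 3.47, were below the filter at 3.62. These probe sets were thus tested only through their large means. The tested probe sets of PCDHB3, PCDHB12 and PCDHB18P end in _x_at, a suffix for probes that may bind other transcripts. Their values are thus uncertain as to gene. A second PCDHB18P probe set below the filter (234479_at) had the opposite sign, at 1.30 with no filter (adjusted p = 0.408, limma). For PCDHB4, a second probe set below the filter (231750_at) was at -0.20 (adjusted p = 0.945, limma). PCDHB2 was at 7.17 ± 0.21 in small and 7.41 ± 0.28 in large cells (SD, n = 4 each), and its 95% interval for the difference ran from -0.66 to 0.17. The other tested beta probe sets ranged from -0.60 (PCDHB17P) to 0.02 (PCDHB6), and 12 of the 25 beta probe sets stayed below the filter.

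In the gamma cluster, PCDHGA4 (1552735_at) read 5.55, 6.02, 5.38 and 6.04 on small arrays, against 6.60, 6.78, 6.82 and 7.14 on large arrays. The groups were apart and the difference was -1.08 ± 0.22 SE (adjusted p = 0.0306, limma), or 2.12-fold lower in small cells. None of the other 5 tested gamma probe sets passed. PCDHGA8 read 4.44, 4.98, 4.35 and 4.75 on small arrays, against 4.50, 5.33, 5.10 and 5.30 on large arrays, with a difference of -0.42 ± 0.29 SE (adjusted p = 0.52). PCDHGA3 (216352_x_at) read 3.33, 4.41, 2.07 and 4.04 on small arrays, against 4.50, 4.25, 3.45 and 3.78 on large arrays, a difference of -0.53 ± 0.55 SE (adjusted p = 0.701). Both sets of values overlapped. The small mean of this PCDHGA3 probe set, 3.46, was below the filter, so it was tested only through its large mean. A second PCDHGA3 probe set below the filter (211879_x_at) had the opposite sign, at 0.36 with no filter (adjusted p = 0.846, limma). PCDHGB5, PCDHGC3 and PCDHGA1 had differences of -0.14, -0.05 and 0.12, with intervals that reached from -1.05 at the lowest to 0.82 at the highest. Of 20 gamma probe sets, 14 stayed below the filter.

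**Figure D1:**
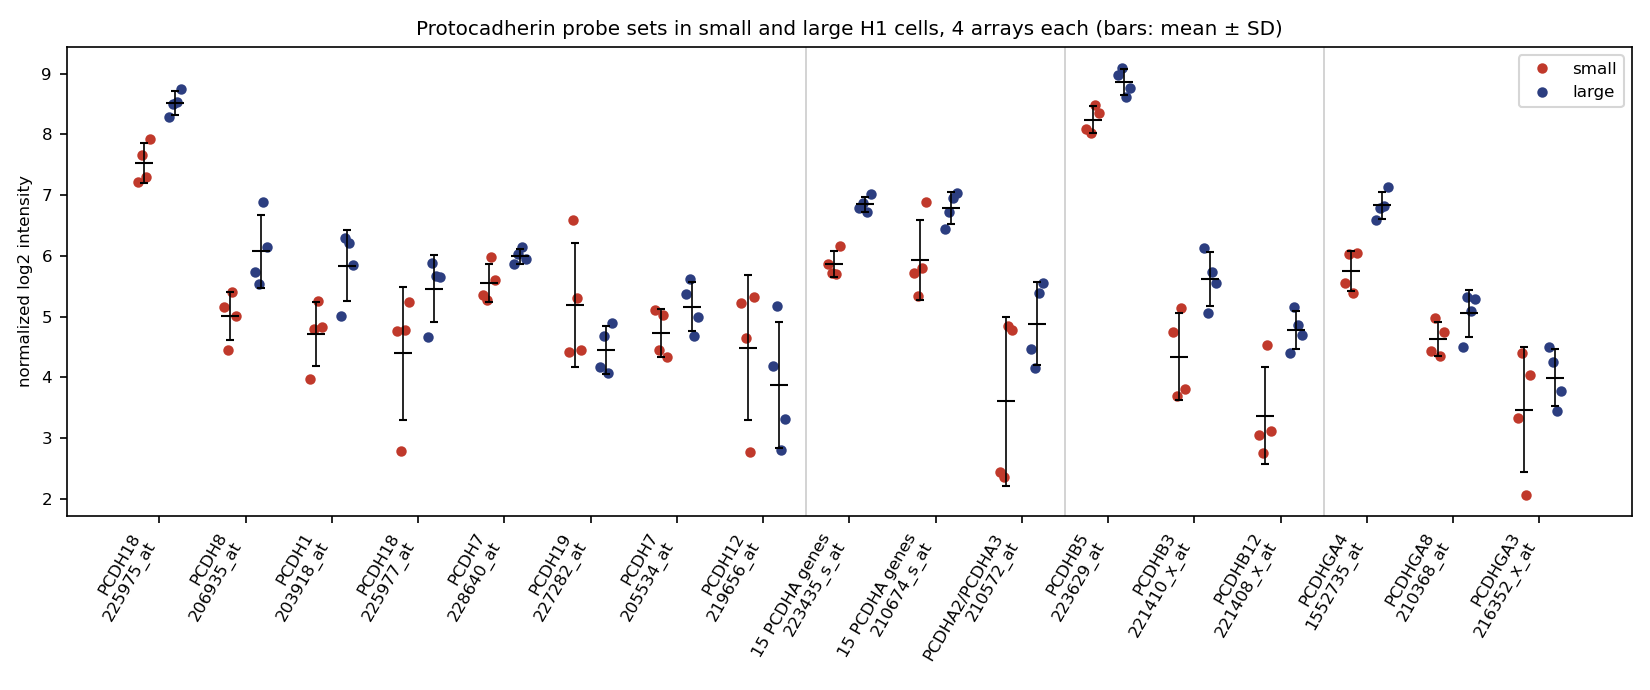
Normalized log2 intensity (y axis) of 17 protocadherin probe sets (x axis) on 4 small arrays (red, left) and 4 large arrays (blue, right), with black bars for mean ± SD; grey lines part the genes outside the clusters, PCDHA, PCDHB and PCDHG. Red and blue points are apart for PCDH18 225975_at, PCDH8, the shared alpha probe set 223435_s_at, PCDHB5 and PCDHGA4.

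Among genes outside the clusters, PCDH8, known in the frog as paraxial protocadherin for its part in separating mesoderm, read 5.16, 4.46, 5.40 and 5.01 on small arrays, against 5.73, 5.53, 6.89 and 6.14 on large arrays. The groups did not overlap, but the large arrays were spread and the difference of -1.07 ± 0.31 SE did not pass (adjusted p = 0.115). PCDH1, an adhesion protein of airway and other epithelia, read 3.97, 4.80, 5.25 and 4.83 on small arrays, against 5.01, 6.29, 6.20 and 5.85 on large arrays. Large array 1 was within the small range, and the difference was -1.12 ± 0.34 SE (adjusted p = 0.125). Without large array 1 it was -1.43 and passed (adjusted p = 0.0345).

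PCDH7, whose cytoplasmic part binds the phosphatase inhibitor SET, had 3 tested probe sets. The first (228640_at) read 5.35, 5.28, 5.98 and 5.61 on small arrays, against 5.86, 6.03, 6.15 and 5.95 on large arrays, a difference of -0.44 ± 0.22 SE (adjusted p = 0.357). Small array 3 was within the large range. Another (205534_at) read 5.10, 4.46, 5.02 and 4.33 on small arrays, against 5.37, 5.61, 4.69 and 4.99 on large arrays, with the same difference of -0.44 and overlapping groups, and 210273_at was at -0.48 ± 0.52 SE. The 3 differences were alike, and none passed. PCDH7 probe sets below the filter had both signs with no filter. They were at 0.23 (205535_s_at, adjusted p = 0.928) and -1.13 (210941_at, adjusted p = 0.469, limma).

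PCDH19, an X-linked gene known for an epilepsy that affects heterozygous carriers, had the most positive difference of the 44. It read 4.42, 6.59, 5.30 and 4.46 on small arrays, against 4.17, 4.67, 4.07 and 4.89 on large arrays, 0.74 ± 0.44 SE (adjusted p = 0.45). Small array 2 was the highest, and without it the difference was 0.28. PCDH12, an endothelial protocadherin, read 5.22, 4.64, 2.77 and 5.33 on small arrays, against 4.19, 5.17, 2.81 and 3.31 on large arrays, with a difference of 0.62 ± 0.61 SE (adjusted p = 0.687) and full overlap. The neuronal genes PCDH10, PCDH17 and PCDH9 had differences between -0.22 and 0.09 on 6 tested probe sets, with 95% intervals from -1.48 at the lowest to 1.22 at the highest. The 2 tested probe sets shared by PCDH11X and PCDH11Y were at -0.25 ± 0.29 and -0.07 ± 0.34 SE. PCDH15, of the tip links of hair cells, PCDH20 and the divergent noncoding transcript PCDH10-DT had no tested probe set.

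**Figure D2:**
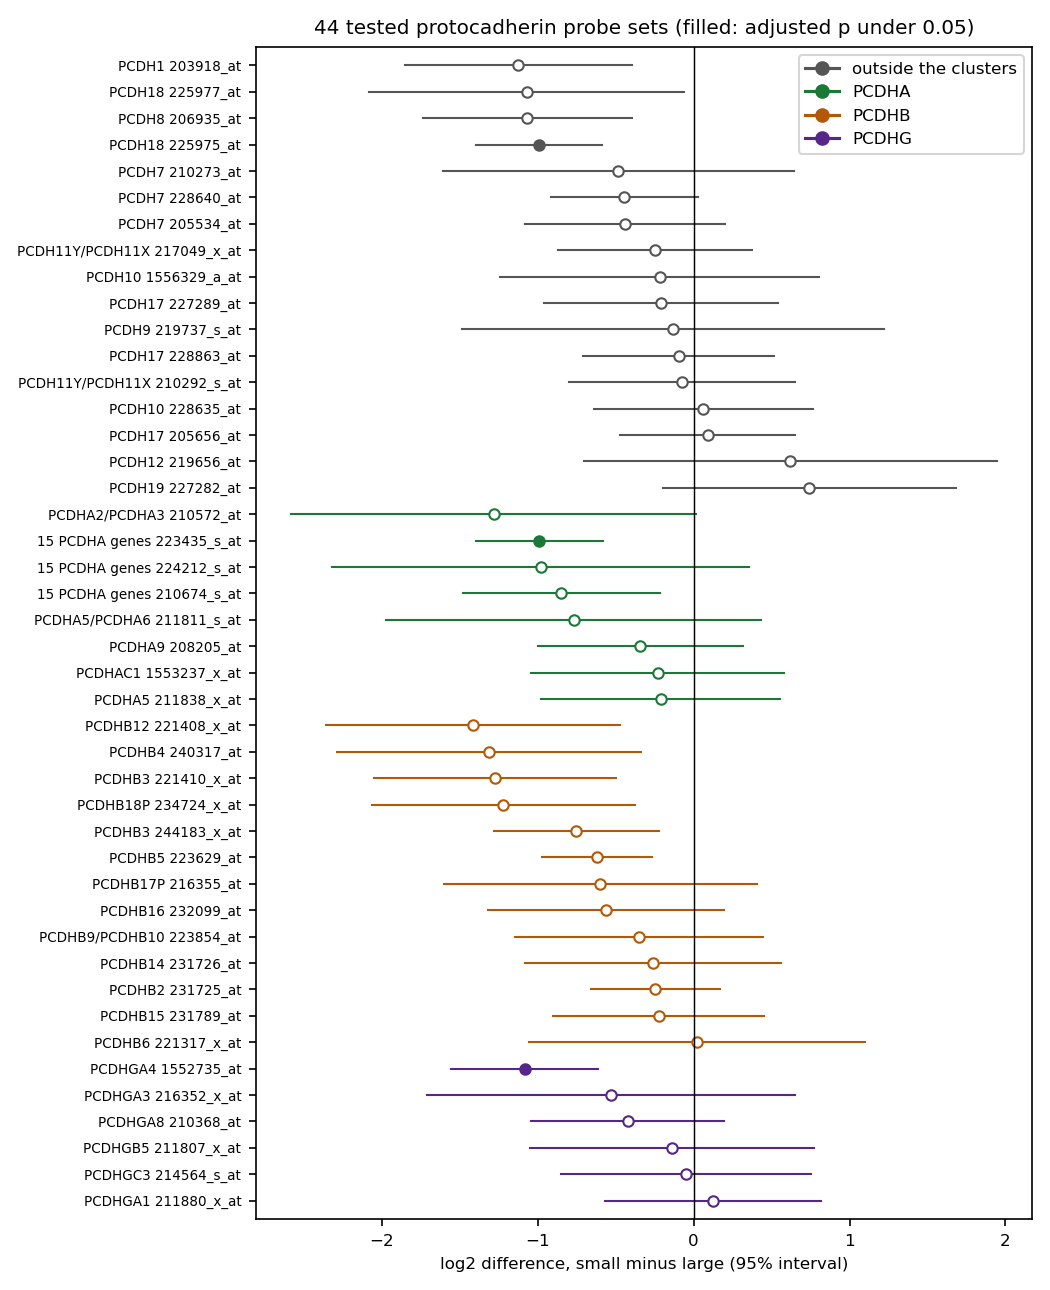
Log2 difference, small minus large (x axis), with its 95% interval, for each of the 44 tested protocadherin probe sets (y axis), coloured by family, filled where adjusted p was under 0.05. The filled points are PCDH18 at -0.99, the shared alpha probe set at -0.99 and PCDHGA4 at -1.08, and the positive differences are led by PCDH19 at 0.74.

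Over the 27 tested clustered probe sets the median difference was -0.56, and 25 were below 0, while over all 32768 tested probe sets the median was 0.02 and 47.7% were below 0. By family the medians were -0.81 for 8 alpha, -0.60 for 13 beta and -0.28 for 6 gamma probe sets. With no filter they were -0.40 over 13 alpha, -0.35 over 25 beta and -0.15 over 20 gamma probe sets. The filter took the mean of all 8 arrays, and 6 of the 27 had only their large mean above it and 0 only their small mean. Of the 21 with both means above it, 19 were below 0, with a median of -0.35. Over all 58 clustered probe sets, with no filter, 45 were below 0 and the median was -0.32. The 17 tested probe sets outside the clusters had a median of -0.22, with 13 below 0.

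The arrays of a group were not alike in this. The median level of the 27 clustered probe sets was 4.44, 4.51, 4.55 and 4.48 on small arrays 1 to 4, against 4.50, 5.06, 5.09 and 5.21 on large arrays 1 to 4. Large array 1 was thus within the small range, and it had the highest 3′ excess of the controls. Without it the median difference was -0.62. For the 3 probe sets that passed, large array 1 still lay above every small array. With the 3′ excess as a covariate, PCDH18 and the shared alpha probe set were at -0.91 and -0.98 (adjusted p = 0.0476 each) and PCDHGA4 was at -0.98 (adjusted p = 0.0543).

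**Figure D3:**
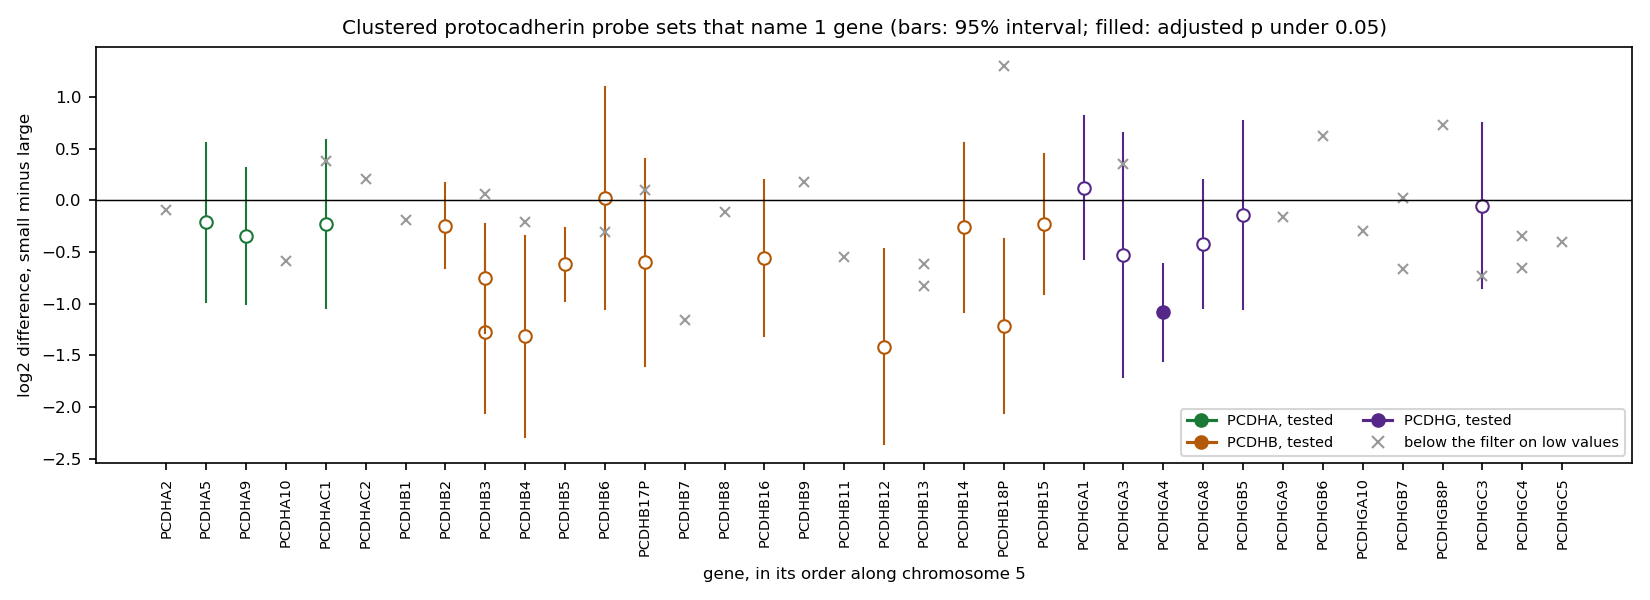
Log2 difference, small minus large (y axis), of 48 clustered probe sets that name 1 gene, by the order of the genes along chromosome 5 (x axis), with 95% intervals for 21 tested ones and grey crosses, without intervals, for those below the filter. The filled point is PCDHGA4 at -1.08; the probe sets shared by several genes are not drawn.

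The 47 probe sets below the filter had mean levels from 1.50 to 3.61 on the log2 scale, where the filter stood at 3.62. Just inside it were PCDH9 219737_s_at at 3.65 and PCDHGA3 216352_x_at at 3.73, and just outside PCDHB6 239443_at at 3.57 and PCDHB7 231738_at at 3.55. With no filter on low values, none of the 47 passed. The smallest adjusted p among them was 0.261, for a probe set shared by PCDH11X and PCDH11Y (unadjusted p = 0.0134). For 2 of the 47, both of PCDH11X, 1 of them shared with PCDH11Y, all small values were below all large values. They were above them for 0 of the 47. Of all 21845 probe sets below the filter, 354 had all small values below all large values. Nearly as many had them above.

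Of the cadherin superfamily relatives, the very large FAT, Dachsous and CELSR cadherins and the smaller ones listed with them, 5 of 16 tested probe sets passed the test, all lower in small cells and from 4 of 13 genes, with a median difference of -0.80 over the 16 (-0.15 over all 33 with no filter). Of all tested probe sets, 1.31% passed as lower. FAT1, an atypical cadherin of epithelial cells, was 2.75-fold lower (8.24 ± 0.39 in small and 9.70 ± 0.30 in large cells, SD, n = 4 each, difference -1.46 ± 0.20 SE, adjusted p = 0.00912). CELSR2, a planar cell polarity cadherin, was lower on both tested probe sets (-1.10 and -0.96, adjusted p = 0.0149 and 0.0488). FAT3 passed on 236029_at at -1.14 (adjusted p = 0.0336) but not on 1558964_at at -0.26 (adjusted p = 0.741). CELSR3 passed on 40020_at at -0.82 (adjusted p = 0.0485) but not on 205165_at at -1.15 (adjusted p = 0.26). With each array left out in turn, between 1 and 4 probe sets of this list were lower, and only 1 or 2 where the array left out was small array 1, 2 or 3 or large array 2, 3 or 4.

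Of the factors for promoter choice and chromatin of the clusters, 0 of 49 tested probe sets of 18 genes passed in either direction (limma). At an unadjusted p under 0.05, 2 were lower and 4 higher, where 8.58% of all tested probe sets were lower and 6.65% higher. The median difference was 0.03. The probe sets of 1 gene differed among themselves. WAPL, which unloads cohesin, was at 0.43, 0.08 and -0.05 on its 3 tested probe sets. The cohesin subunit RAD21 was at -0.36 and 0.07, SMC3 at 0.78, 0.26, 0.24 and -0.09, and STAG2 at 0.41, -0.02 and -0.18. Of the partners and processing enzymes, 0 of 35 tested probe sets of 18 genes passed, with a median of -0.16. At an unadjusted p under 0.05, 5 (14.3%) were lower and 2 higher, against the same 8.58% and 6.65% of all tested. ADAM10, the protease that sheds protocadherin ectodomains, was at -0.71, -1.19 and -0.39 on its 3 tested probe sets, with adjusted p from 0.102 to 0.734. The kinase PTK2 was at -0.75, -0.32, 0.34 and 0.46, so its probe sets had both signs. CYFIP2 of the WAVE complex was at 0.45 and 0.21, and the gamma-secretase subunit NCSTN at -0.75 on its only tested probe set. Over the other settings tried, at most 2 partner probe sets and 0 chromatin probe sets were lower.

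**Figure D4:**
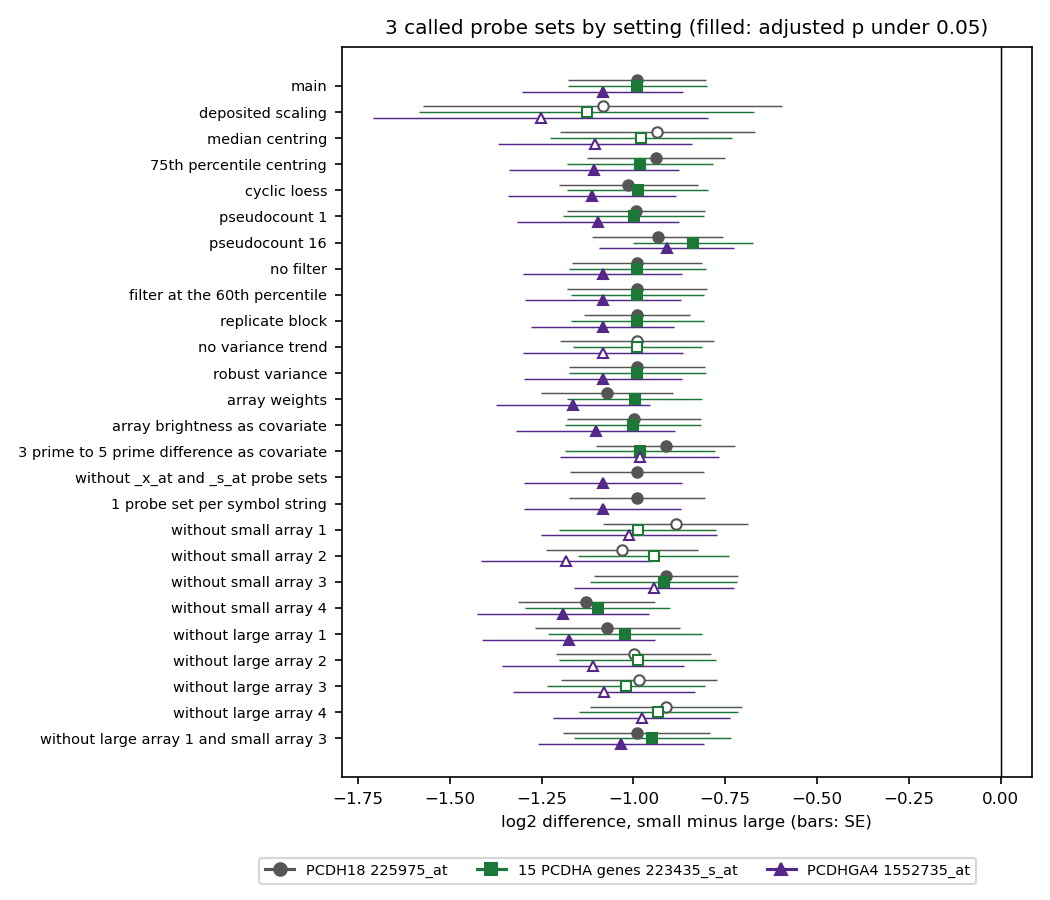
Log2 difference, small minus large (x axis, bars are SE), of the 3 protocadherin probe sets that passed, under each processing setting (y axis), filled where adjusted p was under 0.05. All points lie below 0, between -1.25 and -0.84, and the open points are those that missed the threshold, among them all 3 probe sets on the deposited scaling and without small array 1.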

How the data were processed

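RNA from 4 small and 4 large sorts of H1 cells was measured on 1-colour Affymetrix arrays. Per the series design text, the authors read the scans with GeneChip Operating Software and imported them into Rosetta Resolver. The deposited values are linear intensities, 1 for each probe set on each array, and their background correction and scaling are not given in the sources used here. Groups and replicate numbers came from the sample titles.

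Intensities were converted to log2 after adding 1.81, the 10th percentile of all values, so differences of dim probe sets are understated, and were quantile normalized. After 62 control probe sets were left out, probe sets whose mean over the 8 arrays was above the 40th percentile (3.62) were tested, 32768 in all. Small minus large was fitted with limma 3.58.1 in R 4.3.3 (lmFit, eBayes with variance trend), two-sided, adjusted by Benjamini-Hochberg over all tested probe sets, threshold 0.05. Errors of differences are moderated SE, and the number of arrays limits the precision. The procedure was tested on data simulated with independent noise for each probe set and array, which cannot show how array differences affect the calls.

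Members were found by symbol in GEO's platform annotation, and other genes from probe sets with 1 symbol, updated by gene ID. Values per array are given for members that passed, for members outside the clusters with the smallest p (up to 10 with those that passed) and for the 3 with the smallest p in each cluster family. Up to 4 genes of each other list are named. The PCDH11X and PCDH11Y levels per array are left out. The members and lists were chosen with earlier results of these data known. Settings tried beside the reported one were 18 alternatives and the leaving out of each of 8 arrays. No source used here says if equal replicate numbers share a culture or a day. The deviations of equally numbered small and large arrays correlated at 0.10, 0.10, 0.21 and 0.02, so no block entered the comparison.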

Additional observations from a re-analysis of the deposited data

Results flagged for a closer look

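Of 84 groups of 4 arrays checked over the tested protocadherin probe sets, 4 held an array that stood far from the others of its group, and chance gives about 1 in 20 groups. Small array 2 was at 1.55 on the shared alpha probe set 224212_s_at, where the other small arrays were at 4.48 to 4.55. The same array was at 3.62 on PCDHB6 (221317_x_at), against 5.14 to 5.43 on the other small arrays. Large array 2 was at 5.91 on PCDH10 (228635_at), against 5.04 to 5.15 on the other large arrays. It was at 5.31 on PCDHGA1 (211880_x_at), against 4.67 to 4.73 on the other large arrays. None of these 4 probe sets passed the test.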

How the results depend on the processing

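Each count below is of probe sets lower in small cells. Of the clustered protocadherins 2 passed as reported, 0 without a variance trend, with median centring or on the deposited scaling, 1 with the 3′ excess as a covariate, with _x_at and _s_at probe sets dropped and with 1 probe set per symbol string (the shared alpha probe set itself is left out in these last settings), and 0 to 3 with 1 array left out. Of the other protocadherins 1 passed as reported, 0 without a variance trend, with median centring or on the deposited scaling, 3 with array weights, 2 without large array 1 and small array 3, and 0 to 2 with 1 array left out. Where none passed, PCDH18, the shared alpha probe set and PCDHGA4 kept their direction. None was higher in any setting. Over all probe sets 492 passed as reported, 3 without a variance trend, with median centring or on the deposited scaling, 1133 with array weights, 887 with array brightness as a covariate, 309 with the 3′ excess as a covariate, 290 without _x_at and _s_at, 306 with 1 probe set per symbol string, 1156 without large array 1 and small array 3, 1031 at an adjusted p under 0.10, and 49 (without large array 4) to 790 (without large array 1) with 1 array left out. The replicate number as a block gave 1211 probe sets in all, 3 clustered (2 without the block) and 3 other protocadherins (1 without it): PCDHB3 (221410_x_at, adjusted p = 0.0309), PCDH8 (0.0301) and PCDH1 (0.0262) joined. As 3 of 4 small arrays, but not small array 4, correlated best with their own number, the numbers are not shown to pair the arrays.

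The clustered median of -0.56 was -0.29 with a pseudocount of 16 and -0.32 with no filter, and -0.66 to -0.50 with 1 array left out. The median of the others, -0.22, was -0.44 with a filter at the 60th percentile and -0.35 to -0.15 with 1 array left out. The median of all probe sets was -0.09 on the deposited scaling, against 0.02 as reported. PCDHGA3 (216352_x_at) was at 0.10 without large array 1 and small array 3. The cadherin relatives, 5 lower as reported, had 0 without a variance trend, with median centring or on the deposited scaling, 3 with no filter, 2 with the 3′ excess as a covariate and 1 to 4 with 1 array left out. The partners, 0 as reported, had 1 with the block and with array weights, 2 without large array 1 and small array 3, and 0 to 1 with 1 array left out. PCDH18 passed in 17 of 25 settings other than the reported one, the shared alpha probe set in 15 of 23 and PCDHGA4 in 15 of 25. Where the calls differ between settings with the same arrays and probe sets, the cause was not tested.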
